A study of Mus musculus with 6 samples.

Results

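The genes described here encode the proteins of the cytosolic ribosome, which are assembled with ribosomal RNA into a small and a large subunit. The members were the protein-coding genes whose symbol is Rps or Rpl followed by a number, with an optional letter or paralog ending, together with Rpsa and the stalk genes Rplp0, Rplp1 and Rplp2. Of 24553 genes and unmatched rows in the count table, 84 met this rule, 31 of the small subunit and 53 of the large subunit. The symbol pattern also matched the transcribed pseudogene Rps4l and the kinase-type gene Rps6kl1, which were left out. The rule uses symbols only, but the group was proposed with earlier results of these data known.

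RNA was sequenced from the cortex of male C57BL/6J mice aged 15 weeks, 14 days after an experimental stroke, in 3 control and 3 SCFA libraries. The SCFA group received short-chain fatty acids in the drinking water for 4 weeks, beginning when the mice were 6 to 8 weeks old, and the control group received matching salts instead. No genetic change is named for either group. All animals, controls included, were given 4 antibiotics (ampicillin, vancomycin, neomycin and metronidazole) in sweetened water of 5% sucrose. The sources used here do not say whether tissue of several mice was pooled or which hemisphere was sampled. If the libraries of a group did not come from separate animals, the p-values measure technical spread only. The comparison asks whether the transcriptome of the cortex after stroke differs with SCFA.

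Ribosomal proteins fold into and hold together the RNA core of the ribosome, in which the small subunit reads the message and the large subunit joins amino acids. Their messages are among the most abundant of a cell, and the proteins are made in near-equal numbers so that subunits can assemble. Many of these messages are known to begin with a C followed by a run of pyrimidines, the terminal oligopyrimidine (TOP) start, through which the kinase mTOR and the binding protein Larp1 control their translation. In the cortex, ribosomes lie in cell bodies and along dendrites, and protein synthesis there is known to fall acutely after ischaemia.

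The start sites are shown first, because the TOP start is the feature these genes are best known to share and the rule did not use it. RefSeq promoter entries (GRCm38.p6) were found for 64 of the 84 genes, 23 of the small and 41 of the large subunit. Each window below holds 15 bases before the annotated start and 15 bases from the first transcribed base onward, 5′ to 3′ on the transcribed strand, with its longest pyrimidine run in capitals. The first 5 have C at the annotated first base followed by at least 4 pyrimidines.
Rps6, chr4:86857353-86857382, minus strand: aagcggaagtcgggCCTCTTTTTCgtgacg
Rps27, chr3:90213634-90213663, minus strand: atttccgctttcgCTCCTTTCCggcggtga
Rps18, chr17:33955651-33955680, minus strand: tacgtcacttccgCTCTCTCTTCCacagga
Rpl28, chr7:4792950-4792979, plus strand: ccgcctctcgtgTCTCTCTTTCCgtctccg
Rpl15, chr14:18270972-18271001, minus strand: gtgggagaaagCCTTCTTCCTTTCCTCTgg
The next 4 are those of genes with separate control and SCFA values described further on, and none of the 4 has such a tract at the annotated first base.
Rpsa, chr9:120127751-120127780, plus strand: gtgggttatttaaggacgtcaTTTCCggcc
Rps2, chr17:24720048-24720077, plus strand: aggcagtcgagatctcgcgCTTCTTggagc
Rps16, chr7:28350674-28350703, plus strand: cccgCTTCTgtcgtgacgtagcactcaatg
Rpl27, chr11:101442230-101442259, plus strand: acgctctgTTCCTgtctgctgctcgtgctg

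A tract at the annotated first base was found in 14 of the 64 ribosomal protein genes (21.9%), against 467 of 17492 protein-coding genes with an entry (2.67%). The motif searched was C followed by at least 4 bases that are each C or T, on the transcribed strand only, and a gene with several annotated starts counted if any of them had it. The share was 26.1% (6 of 23) in the small subunit and 19.5% (8 of 41) in the large subunit. Allowing the tract to begin within 10 bases of the annotated start gave 40 of 64 genes (62.5%), against 34.9% of protein-coding genes. The literal string CTCTTTCC lay within 30 bases of the start in 3 genes (4.69%), Rpl28, Rpl18 and Rpl35a, against 0.349% of protein-coding genes. An annotated start can lie some bases from the one used in the tissue, so a window without a tract says only that these letters are not at this position.

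The 84 genes were measured very unequally, and the number of transcript rows a gene had in the deposited table went with its count. The 71 genes with a single RefSeq row had a median of 1566 counts summed over the 6 libraries, up to 16079 for Rpl4, and 68 of them had enough counts to be tested. The 13 genes with 2 or more rows had a median of 15 counts and a maximum of 132 (Rps27), and Rps27 was the only one tested. Over all protein-coding genes, the members included, the pattern was the same, with a median of 293 counts for 15193 genes with 1 row and 17 counts for 5301 genes with more. In multi-row ribosomal protein genes, a median of 18.4% of the 50-base stretches of the transcripts occurred in 1 row only. The sources used here do not say how reads shared by several transcripts were counted, and its part in the low counts was not tested.

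**Figure D1:**
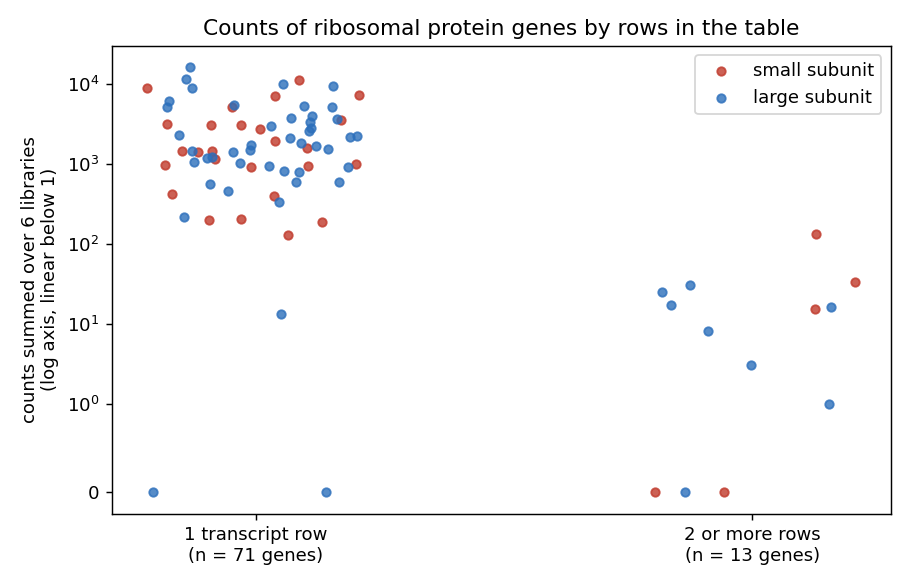
Counts summed over the 6 libraries (vertical log axis, linear below 1) for each of the 84 ribosomal protein genes, split by the number of transcript rows in the table; each point is a gene, coloured by subunit. Single-row genes reach 16079 counts, and the 13 multi-row genes end at 132.

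Of the 15 genes that could not be tested, 12 have several rows, and their counts say little of their messages. Rpl22 (5 rows), Rps27a (which encodes a fusion of ubiquitin and a ribosomal protein) and Rps27l had 0 counts in all 6 libraries. Rps15 had 33 counts, Rpl30 30, Rpl19 25, Rpl34 17, Rpl31 16, Rps24 15, Rpl35a 8, Rpl38 3 and Rpl3l 1. For scale, 3 counts stand for 0.206 to 0.346 CPM (counts scaled to a common library size with TMM factors) in these libraries. The other 3 have a single row. Rpl26 and Rpl10l had 0 counts, and Rpl39l had 13, of which 4 were in SCFA 1 and 9 in SCFA 2. A count of 0 was therefore not read as absence, least of all for Rpl26, which encodes a standard part of the large subunit.

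Sequence shared with other annotated genes, pseudogenes and overlapping genes among them, is a second limit on these counts. Of the 83 genes with a transcript sequence in GENCODE M21, the median gene shared 53.3% of its 50-base stretches with at least 1 other annotated gene, and 45 genes shared over 50%. The range ran from 0% (3 genes, Rpl3l and Rpl39l among them) to 95.1% for Rpl35, which also overlaps the genes Wdr38 and Arpc5l. The median gene shared sequence with 10 other genes, among them pseudogenes such as Rps6-ps4 for Rps6 and Rps2-ps10 for Rps2. Over the 70 single-row genes with a sequence, Spearman's rho between the level per kilobase and the shared percentage was 0.0053, a description across genes that share libraries and depth. Values of genes with many shared stretches are uncertain, since the table does not show where such reads went.

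Levels are comparable between genes only per length, so CPM was divided by the length of the annotated transcript for the 68 tested genes with one. Rpl41, which encodes the smallest ribosomal protein, led at a mean of 390.1 CPM per kilobase, with values of 416, 420 and 384 in the 3 controls and of 435, 259 and 426 in the 3 SCFA libraries. Rplp1, a protein of the stalk that recruits elongation factors, followed at 295 (309, 300, 350 in controls and 309, 204, 299 with SCFA), and its range overlapped that of Rpl41. Lower in the order, Rpl8 (161), Rpl4 (153), Rpl39 (134), Rps6 (125) and Rpl29 (120.0) had overlapping ranges. At the other end lay Rps29 (4.65), Rpl9 (4.16) and Rps27 (3.46), so that the highest mean was 113 times the lowest. The size of this range is uncertain, since Rps27 had only 132 counts over 2 transcript rows. Stretches that also occur in other genes made up 53.1% of Rpl41, 35.8% of Rps29, 93.3% of Rpl9 and 68.9% of Rps27. The median was 21.5 CPM per kilobase in 27 small-subunit genes and 31.1 in 41 large-subunit genes. For Rps15a, Rps20, Rpl7l1, Rpl5, Rpsa, Rpl15, Rps3 and Rpl21 the matched transcript has 1856 to 5179 bases. That is much longer than the median of 761 bases (small) or 835 bases (large). The value per kilobase of these genes is too low if that annotated end is not used.

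The libraries themselves need a word before the groups are compared. Total counts ran from 9275252 to 13862756, and 35.0% to 55.3% of each total fell in 1 row that matched no gene. A principal component analysis set control 2 apart on component 1 (109, with the other 5 libraries from -25.8 to -17.7) and SCFA 2 on component 2 (51.6, with the others at 9.54 or lower). The labelled tissue was checked by markers: all 12 neuron markers had counts and their summed level was 3180 to 3511 CPM in controls and 3582 to 4036 CPM with SCFA. The sums for the other marker lists, controls first, were 998 to 1182 and 1349 to 2006 CPM for astrocytes (10 genes), 397 to 521 and 663 to 999.8 CPM for microglia (12), 191 to 272 and 217 to 271 CPM for oligodendrocytes (10, with 1 at 0), and 127 to 150.1 and 173 to 215 CPM for endothelium (10, Pecam1 and Tek at 0). Markers of striatal neurons (10 genes), a region under the cortex, summed to 401 CPM in SCFA 2 and 71.8 to 135 CPM elsewhere, and exocrine pancreas markers (12) to 37.0 to 378 CPM in controls and 0.825 to 2.61 CPM with SCFA. Lymphocyte and neutrophil markers (11, Ly6g and S100a9 at 0) summed to 0.461 to 1.20 CPM in controls and 1.86 to 3.55 CPM with SCFA, and red cell markers (6, the 4 haemoglobin genes at 0) to 0 to 2.27 CPM and 0.372 to 0.940 CPM.

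On the TMM scale, the ribosomal protein genes together were level in 5 libraries and low in 1. Summed over members, the controls (1, 2 and 3) measured 3192, 3203 and 3135 CPM, and the SCFA libraries measured 3194, 2228 and 3231 CPM. Only SCFA 2 lay apart, and the groups overlapped (3177 ± 36.4 in controls and 2885 ± 568 with SCFA, SD, n = 3 each). The members took 0.359%, 0.244% and 0.301% of all counts in controls and 0.330%, 0.271% and 0.313% with SCFA, with 95% Wilson intervals from 0.355% to 0.362% in control 1 and from 0.241% to 0.247% in control 2, which cover counting error only. With structural RNA and the unmatched row left out of the total, the shares were 0.593%, 0.557%, 0.562% and 0.589%, 0.422%, 0.602%, and SCFA 2 was the lowest. As a share of all counts, control 2 was the lowest at 0.244%, with SCFA 2 next at 0.271%. In bulk tissue, fewer cells of a type and less RNA per cell cannot be told apart.

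**Figure D2:**
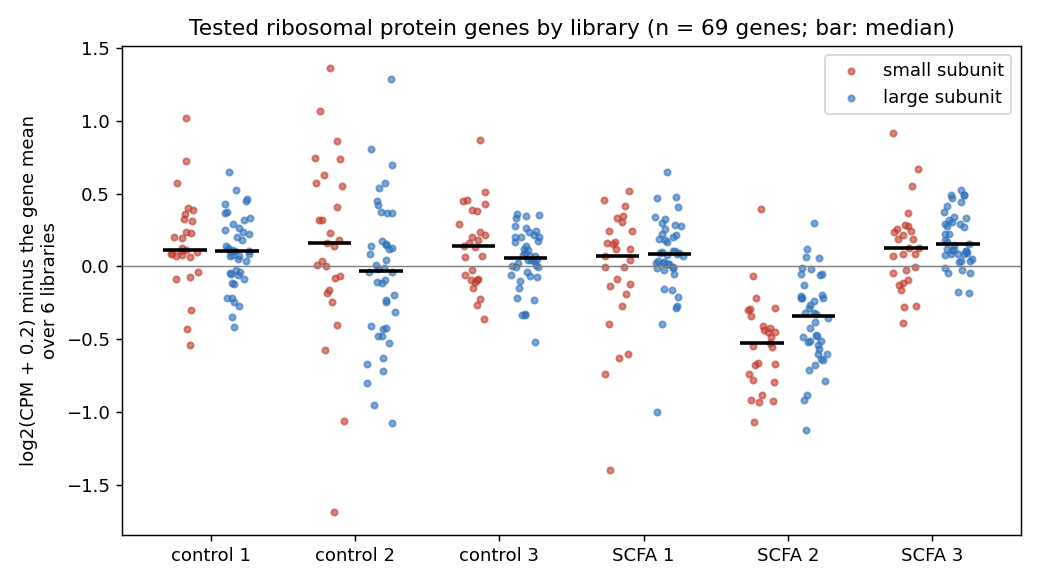
Deviation of each of the 69 tested ribosomal protein genes from its own mean over the 6 libraries, in log2(CPM + 0.2) on the vertical axis, by library; points are genes, coloured by subunit, and black bars are medians. The medians of SCFA 2 lie at -0.53 (small) and -0.34 (large), and those of the other 5 libraries between -0.03 and 0.16.

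Gene by gene the picture was the same. A library score, the mean over the 69 tested genes of log2 CPM minus the gene's mean over the libraries (prior count 2), was 0.13, 0.02 and 0.08 in controls and 0.03, -0.43 and 0.16 with SCFA. SCFA 2 was the lowest library for 42 of the 69 genes (60.9%) and the highest for 0, where it was the lowest for 18.7% and the highest for 20.4% of all tested genes. Rplp1, Rpl41 and Rpsa each had their lowest value there. Striatal, astrocyte, microglia, neuron and endothelial markers were highest in the same library, at 401, 2006, 999.8, 4036 and 215 CPM, and their part in the low ribosomal protein values was not tested. Control 2 was the lowest library for 18 of the genes (26.1%) and the highest for 19 (27.5%), near the shares over all tested genes (31.3% and 24.9%), with deviations spread by an SD of 0.56 where the other libraries had 0.23 to 0.35. Over all tested genes that library's deviations were also the widest, with an SD of 0.98 against 0.47 to 0.57. Examples, chosen after the values were seen, were Rps21 at 7.49 CPM in control 2 and 1.38 to 3.34 CPM elsewhere, Rpl36 at 27.1 CPM against 6.26 to 11.7 CPM, and Rps29 at 0.35 CPM (3 counts) against 1.24 to 3.13 CPM.

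Between SCFA and control, no ribosomal protein gene passed the test. Of the 69 tested, 0 were called higher and 0 lower (edgeR quasi-likelihood test over all genes, Benjamini-Hochberg adjusted p under 0.05), and the smallest adjusted p among them was 0.864. The background was low: of 11969 genes tested, 10 were called, or 0.0835% (0.00835% higher and 0.0752% lower). At an unadjusted p under 0.05, 1 of the 69 lay higher (1.45%, against 2.97% of all tested genes) and 5 lay lower (7.25%, against 2.79%), 6 in all where the background share was 5.76%. The other tools run on the same counts put 7 members under that limit in DESeq2 and 7 in limma-voom, with 0 called by either. The 5 lower members became 0 without SCFA 2, 1 without control 2, 0 with scaling to total counts and 2 with the replicate block. The median log2 fold change of the members, SCFA minus control, was -0.12, with 54 of 69 (78.3%) below 0, while that of all tested genes was 0.01 with 49.1% below 0. These medians are descriptions without a test. The member median was 0.04 without SCFA 2, with 46.4% of members below 0, and 0.05 without control 2 and SCFA 2, with 44.9% below 0. Scaling to total counts instead of TMM gave 0.01, with 47.8% below 0, while moving the median of all genes to 0.18, so that the members lay 0.17 below it.

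**Figure D3:**
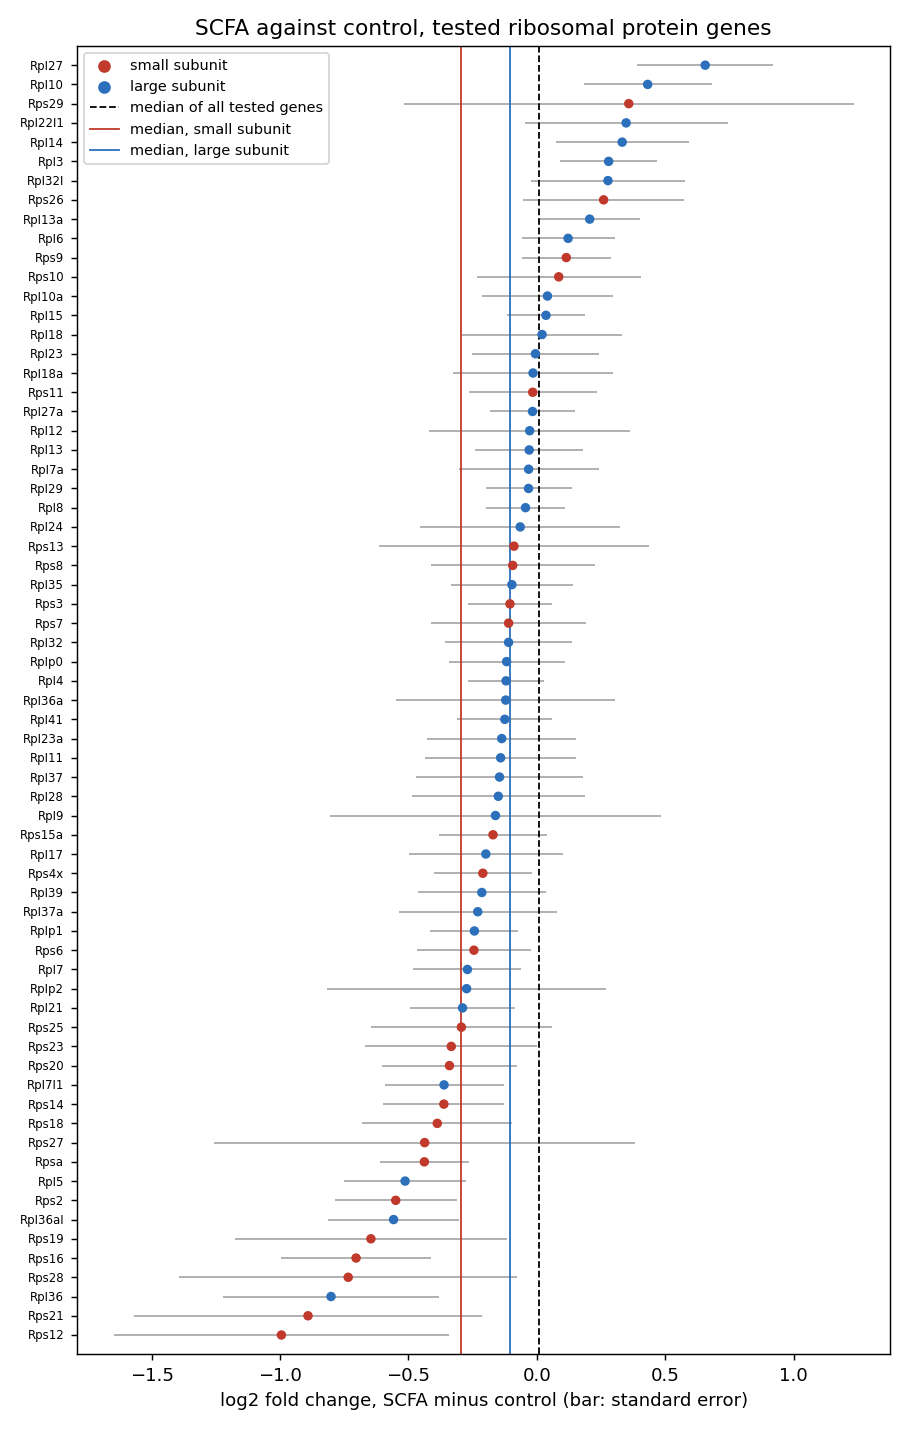
Log2 fold change, SCFA minus control, of 67 of the 69 tested ribosomal protein genes in order (horizontal axis, bars are standard errors), coloured by subunit; lines mark the medians of the small subunit (-0.29), the large subunit (-0.10) and all tested genes (0.01, dashed). None of the 69 passed an adjusted p of 0.05.

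The small-subunit genes lay lower than the large-subunit genes on this scale. Their median log2 fold change was -0.29 over 27 tested genes, with 23 below 0, against -0.10 over 42 large-subunit genes, with 31 below 0. Leaving out SCFA 2 gave -0.09 and 0.08, and leaving out both control 2 and SCFA 2 gave -0.04 and 0.06. The small-subunit score was 0.16, 0.14 and 0.14 in controls and -0.03, -0.54 and 0.13 with SCFA, so every SCFA library was below every control, although the nearest values were 0.13 (SCFA 3) and 0.14 (control 3). Other measures of the same genes overlapped: the median deviation was 0.12 in SCFA 3 and 0.11 in control 1, and the summed CPM was 1067 in SCFA 1, 1055 in SCFA 3 and 1047 in control 3. The large-subunit score, at 0.10, -0.05 and 0.05 in controls and 0.08, -0.37 and 0.19 with SCFA, overlapped between the groups. Small-subunit CPM summed to 1119.7 ± 94.5 in controls and 942 ± 206 with SCFA, and large-subunit CPM to 2057 ± 70.4 and 1942 ± 363 (SD, n = 3 each).

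The balance of the subunits within a library does not depend on that library's scaling factor. Summed large-subunit counts divided by summed small-subunit counts gave 1.94, 1.61 and 1.99 in controls and 1.99, 2.16 and 2.06 with SCFA. Control 2 was the lowest and SCFA 2 the highest, and control 3 and SCFA 1 were 1.99 each, so the groups met there. The large score minus the small score, which weights genes equally, was -0.06, -0.19 and -0.09 in controls and 0.11, 0.17 and 0.06 with SCFA, and here the groups did not overlap. This difference is given as a description, and it carries no p because the genes and the comparison were chosen with earlier results of these data known.

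**Figure D4:**
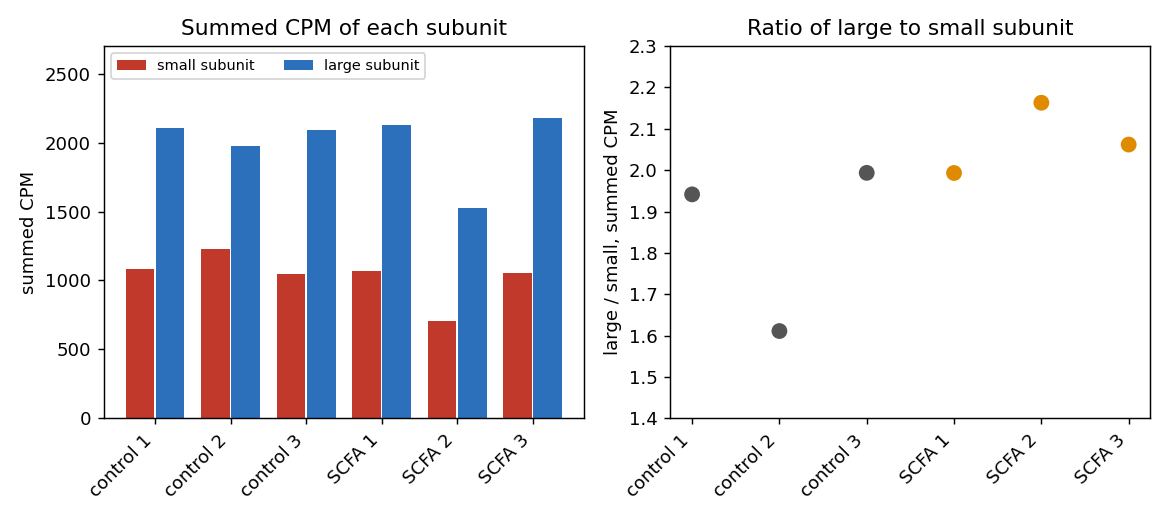
Left, summed CPM of small-subunit (red) and large-subunit (blue) ribosomal protein genes in each library, with bars from 0; right, the ratio of the large to the small sum (points, grey for control and orange for SCFA; the axis does not start at 0). SCFA 2 has the lowest sums and the highest ratio, 2.16, and control 2 the lowest ratio, 1.61.

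Among the small-subunit genes, 4 had every SCFA library below every control, and no large-subunit gene did. That is 14.8% of the 27 tested small-subunit genes, 0 of 42 in the large subunit and 5.80% of the 69 members, against 5.74% of all tested genes. The difference between the subunits was not tested. Rpsa (chr9:120127766-120132369), also known as the laminin receptor precursor and a part of the small subunit at the messenger RNA exit, measured 111, 137 and 115 CPM in controls and 94.6, 70.3 and 103 CPM with SCFA. The highest SCFA value and the lowest control value were 103 and 111 CPM. Its log2 fold change was -0.44 (SE 0.173, unadjusted p = 0.0245, adjusted p = 0.864, edgeR with Benjamini-Hochberg adjustment). Without control 2 it was -0.34, and without SCFA 2 it was -0.28.

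Rps16 (chr7:28350689-28352698), whose protein reaches the decoding region, measured 13.8, 22.01 and 15.1 CPM in controls and 11.5, 8.94 and 10.8 CPM with SCFA, which gave -0.70 on the log2 scale (SE 0.294). Control 2 was the highest and SCFA 2 the lowest library. Rps2 (chr17:24718121-24721927), on the messenger RNA entry side, measured 70.6, 135 and 71.3 CPM against 67.5, 52.8 and 68.5 CPM. Its log2 fold change of -0.55 (SE 0.237) was -0.17 without control 2, and the other 2 controls and 2 of the SCFA libraries lay within 67.5 and 71.3 CPM. The adjusted p of Rps16 and of Rps2 was 0.864 (edgeR, Benjamini-Hochberg). Of their 50-base stretches, 41.6% (Rps16) and 79.0% (Rps2) also occur in other genes.

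Rpl27 (chr11:101442245-101445596) encodes a large-subunit protein and was the only one of the 69 tested members with every SCFA library above every control. It measured 12.1, 10.5 and 11.2 CPM in controls and 19.6, 15.4 and 18.4 CPM with SCFA. The gap from 12.1 to 15.4 CPM was wider than the spread of the controls. The log2 fold change was 0.66 (SE 0.265, unadjusted p = 0.0274, adjusted p = 0.864, edgeR with Benjamini-Hochberg adjustment). It ran from 0.59 to 0.76 when each library was left out in turn, and the unadjusted p from 0.0243 to 0.0836 (edgeR). Of the stretches of Rpl27, 64.1% also occur in other genes, so its count is uncertain. As a count, 1 of 69 (1.45%) stands against 6.42% of all tested genes with SCFA above.

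**Figure D5:**
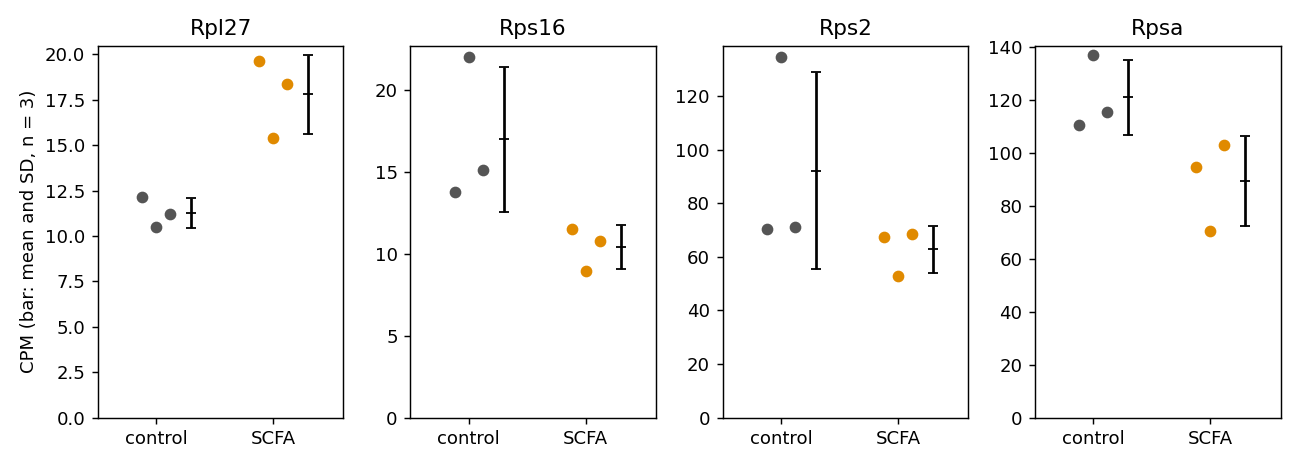
CPM per library (points) of 4 ribosomal protein genes whose control and SCFA values do not overlap, with the group mean and SD (bars, n = 3 each); vertical axes start at 0 and differ between panels. Rpl27 is higher with SCFA, at 15.4 to 19.6 CPM against 10.5 to 12.1 CPM, and the other 3 are lower.

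Other small-subunit proteins of known function overlapped between the groups. Rps6 (chr4:86854099-86857367), the substrate of the S6 kinases downstream of mTOR, measured 101, 165 and 91.5 CPM in controls and 110.0, 78.1 and 114 CPM with SCFA. Control 2 stood above the rest, and the log2 fold change of -0.24 (SE 0.222) turned to 0.06 without it and was -0.08 without SCFA 2. Rps3, which lies at the entry of the message and also takes part in DNA repair, measured 177, 163 and 170 CPM against 181, 121 and 172 CPM, with SCFA 2 the one low value. Rps14, a protein of the platform, measured 53.8, 57.1 and 48.2 CPM against 57.7, 28.5 and 37.9 CPM (log2 fold change -0.36, and -0.15 without SCFA 2), and Rps4x, encoded on the X chromosome, 47.0, 55.2 and 41.4 CPM against 41.7, 35.9 and 46.6 CPM (-0.21, and -0.10 without control 2). Rps27, the tested gene with the fewest reads but one, had 2.19, 1.96 and 2.40 CPM against 0.522, 1.44 and 2.83 CPM (-0.44, SE 0.820), too few for its order to be read.

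In the large subunit, the 3 genes of the lateral stalk, where elongation factors bind, overlapped between the groups. Rplp0, the base of the stalk, measured 33.5, 43.5 and 25.6 CPM in controls and 32.1, 28.2 and 34.2 CPM with SCFA (log2 fold change -0.12, SE 0.226). Rplp1 measured 154, 150 and 175 CPM against 154, 102 and 149 CPM (-0.24, SE 0.172), and SCFA 2 was its low library, without which the value was -0.07. Rplp2 measured 4.86, 7.84 and 3.00 CPM against 2.09, 5.43 and 5.36 CPM (-0.27, SE 0.544), and 0.13 without control 2. Per kilobase Rplp2 stood at 4.94 CPM and Rplp1 at 295 CPM, although their proteins occur as a pair on the ribosome.

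Rpl5 and Rpl11, which bind 5S ribosomal RNA and, when free, the p53 regulator Mdm2, both had log2 fold changes below 0. Rpl5 measured 52.9, 78.4 and 46.0 CPM in controls and 41.8, 30.9 and 51.4 CPM with SCFA (log2 fold change -0.51, SE 0.238, unadjusted p = 0.0502 and adjusted p = 0.864, edgeR). Without control 2 the value was -0.26, and without SCFA 2 it was -0.33. Rpl11 measured 20.8, 38.7 and 27.3 CPM against 33.6, 16.5 and 28.7 CPM (-0.14, SE 0.295), and it was 0.12 without control 2. In both genes control 2 was the highest and SCFA 2 the lowest library, and the difference between the genes was not tested. Rpl5 shares 93.8% of its 50-base stretches with other genes, and 46.6% of its exon bases overlap the gene Fam69a, so its count is uncertain.

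Proteins near the catalytic centre and the exit tunnel make a further group. Rpl3, which lies close to the site of peptide bond formation, measured 71.2, 50.9 and 79.6 CPM in controls and 85.2, 70.4 and 89.5 CPM with SCFA (log2 fold change 0.28, SE 0.189), which was 0.12 without control 2. Rpl10, one of the last proteins to join the large subunit, had 17.6, 14.9 and 21.9 CPM against 24.97, 20.1 and 28.4 CPM (0.43, SE 0.249). Rpl4, of the tunnel wall, had 266, 228 and 242 CPM against 239.8, 187 and 252 CPM (-0.12), and Rpl8, beside the catalytic centre, 126, 135 and 157 CPM against 138, 118 and 148 CPM (-0.04). Each of these 4 overlapped between the groups. Rpl39, also of the tunnel, had 72.5, 102 and 89.1 CPM against 109.6, 48.1 and 69.5 CPM (-0.21, and 0.04 without SCFA 2), with both the highest and the lowest library in the SCFA group.

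The rest of the members with the smallest p in each direction also overlapped. Rpl14 measured 35.5, 17.4 and 30.3 CPM in controls and 40.5, 30.2 and 34.5 CPM with SCFA (log2 fold change 0.33), and without the low value of control 2 it was 0.09. Rpl13a, known also for a role in silencing interferon-induced messages, had 50.7, 42.6 and 55.9 CPM against 60.8, 44.8 and 66.6 CPM (0.21, and 0.11 without control 2). Among genes of high level, Rpl15, Rpl29, Rpl41 and Rpl7 had log2 fold changes of 0.04 (SE 0.151), -0.03 (SE 0.167), -0.12 (SE 0.185) and -0.27 (SE 0.210), and Rpl7 was at -0.07 without SCFA 2.

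Paralog forms, in which a second gene encodes a variant of a ribosomal protein, were uneven in level. Rpl36al stood at 104 CPM per kilobase, above Rpl36a at 17.3. Rpl36al measured 67.3, 77.7 and 50.7 CPM in controls and 59.5, 27.6 and 46.1 CPM with SCFA (log2 fold change -0.56, SE 0.256, unadjusted p = 0.0483, adjusted p = 0.864, edgeR), and -0.30 without SCFA 2. Rpl36a had 9.31, 7.38 and 9.31 CPM against 9.92, 3.51 and 10.6 CPM (-0.12). The order of the pair is uncertain, because 63.1% of the exon bases of Rpl36al overlap another annotated gene and 85.5% of the stretches of Rpl36a occur elsewhere.

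Rpl7l1 stood at 8.24 CPM per kilobase, below Rpl7 at 37.3. The matched transcripts have 2606 and 1163 bases, so this gap depends on the annotated lengths. Mean CPM over the 6 libraries was 21.5 for Rpl7l1 and 43.4 for Rpl7. Rpl7l1 measured 20.4, 27.4 and 24.6 CPM in controls and 17.6, 18.2 and 20.5 CPM with SCFA (-0.36, SE 0.232). Rpl22l1 measured 19.3, 6.57 and 14.3 CPM against 22.1, 9.76 and 19.6 CPM (0.35, SE 0.396), which was 0.02 without control 2 and 0.71 without control 1. Rpl22, its better-known partner, had 0 counts over 5 rows. Rpl32l had 32.1, 14.9 and 20.2 CPM against 28.8, 19.5 and 33.4 CPM (0.28, and 0.05 without control 2), and 14.5% of the stretches of Rpl32 occur in it. Rpl32 itself had 16.9, 26.5 and 20.9 CPM against 18.3, 20.2 and 21.0 CPM (-0.11, SE 0.246). Known tissue-restricted forms were at or near 0: Rpl10l and Rpl39l, best known from testis, had 0 and 13 counts where Rpl10 and Rpl39 had 1477 and 5350, and Rpl3l, of striated muscle, had 1 count (2 rows) where Rpl3 had 5160. Rps27l had 0 counts and Rps27 had 132, both over 2 rows.

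Medians were close between members split by features that the rule did not use, which is a description without a test. The 12 tested genes with a tract at the annotated start had a median log2 fold change of -0.16, and the 39 with a window but no such tract -0.12. The 34 genes with fewer shared stretches had -0.15 and the 34 with more had -0.12. The 35 genes at or above the median level had -0.12 and the 34 below it -0.13.

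Ribosomal proteins that the symbol rule does not catch were described in the same way. Rack1, a scaffold on the small subunit, measured 124, 166 and 125 CPM in controls and 133, 111 and 134 CPM with SCFA (log2 fold change -0.14, SE 0.162). Rps3a1 had 73.3, 58.3 and 78.7 CPM against 81.2, 40.7 and 83.3 CPM (-0.04). In both genes SCFA 2 was the lowest library. Fau, a fusion of a ubiquitin-like protein and a small-subunit protein, had 17 counts over 3 rows and was not tested.

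Other genes of translation were read from lists drawn up by function, and 0 genes of any of them were called, against 0.0835% of all tested genes. Of 31 tested initiation factors (37 listed), 1 was higher (3.23%) and 0 lower at an unadjusted p under 0.05. Over all tested genes the shares were 2.97% higher and 2.79% lower. The median log2 fold change of the list was 0.04. Eif4h, which stimulates the helicase that unwinds the message, measured 2.35, 2.19 and 4.81 CPM in controls and 5.12, 8.94 and 6.25 CPM with SCFA (1.12, SE 0.502), and Pabpc1, the poly(A)-binding protein, 107, 101 and 117 against 136, 114 and 142 CPM (0.27). Their groups were separate for Eif4h and overlapped for Pabpc1. Of 11 tested elongation and termination factors (13 listed), 0 were higher and 1 lower (9.09%), with a median of -0.03. Abce1, which splits ribosomes after termination, measured 81.6, 75.3 and 80.4 CPM against 70.1, 55.8 and 57.0 CPM (-0.38, SE 0.161), and Etf1, the release factor that reads stop codons, 109, 115 and 104 against 91.4, 92.7 and 85.6 CPM (-0.28, SE 0.142).

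Of 31 tested genes of ribosome assembly (33 listed), 1 was higher and 1 lower at that limit (3.23% each), with a median of -0.05. The shares over all tested genes were 2.97% higher and 2.79% lower. Polr1b, a subunit of the polymerase that transcribes ribosomal RNA, measured 5.99, 4.03 and 6.81 CPM in controls and 10.6, 11.4 and 13.8 CPM with SCFA (1.08, SE 0.354), and Nop58, of the particles that methylate ribosomal RNA, 98.1, 83.1 and 84.3 against 74.2, 50.7 and 68.0 CPM (-0.46, SE 0.177). The groups were separate for both, in opposite directions, and neither passed (adjusted p = 0.864, edgeR). Of 8 tested genes that control TOP messages (16 listed), 0 were higher and 0 lower, with a median of -0.07. Larp4, Pdcd4, Tsc1 and Tsc2 had 0 counts in all 6 libraries, so the list covers this control only in part. Larp1 measured 76.3, 79.0 and 101 CPM against 88.6, 97.4 and 97.1 CPM (0.14). Eif4ebp1, an mTOR-controlled repressor of initiation, had 4.94, 7.26 and 0.901 against 2.61, 1.72 and 2.23 CPM (-0.995, SE 0.719).

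Mitochondrial ribosomal proteins, which belong to a separate ribosome, had 70 tested genes of 78 and a median of -0.02. At an unadjusted p under 0.05, 2 were higher (2.86%, against 2.97% of all tested genes) and 3 lower (4.29%, against 2.79%), shares near the background. Mrps18c measured 15.1, 13.4 and 12.2 CPM in controls and 6.58, 6.12 and 5.81 CPM with SCFA (-1.14, SE 0.315, adjusted p = 0.830, edgeR), and Mrpl41 45.1, 53.6 and 51.0 against 35.9, 26.5 and 39.6 CPM (-0.55, SE 0.201). Both had every SCFA library below every control. The summed level of this list was 1031 CPM in SCFA 2 and 1122 to 1273 CPM elsewhere, so SCFA 2 was the lowest library there too, by a smaller margin than for the cytosolic genes.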

How the data were processed

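The authors deposited raw counts of reads per RefSeq transcript for the 6 libraries. The tools named for build mm10 are featureCounts and CASAVA 1.8.2, per the submitters' processing notes. The sources used here do not give the aligner, the strand setting, the read length or the handling of shared reads. Libraries came from total RNA with a kit sold for human FFPE samples (Ovation), per the labels' protocols. Of 34755 rows, 34424 (99.05%) were matched to symbols with RefSeq (GRCm38.p6, the same assembly as mm10) and summed per symbol. The largest unmatched row stayed in the library sizes, with 35.0% to 55.3% of the counts.

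Genes kept by filterByExpr (minimum count 10, minimum total 15) entered edgeR 4.0.16 (R 4.3.3) and were compared by the quasi-likelihood F test with TMM scaling, two-sided, with no covariate and Benjamini-Hochberg adjustment over all 11969 genes. Standard errors are the fold change divided by the square root of F. The fit was tested on simulated data. Alternatives covered scaling, filters, DESeq2 1.42.0, limma-voom 3.58.1, robust dispersion, a replicate block, left-out libraries, structural RNA, single rows and prior counts.

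The members, the lists and the rule for named genes were chosen with earlier results of these data known. Named are the 10 members with the highest mean CPM, the 6 with the smallest p in each direction, paralog forms with their partners, genes set by name, members with too few counts, and 2 genes per pathway list. Shared sequence was measured in 50-base stretches of GENCODE M21 transcripts, a length chosen without knowledge of the reads. Protein identity between paralogs is not analysed here. Some genes are not reported here by name, though they stay in the fits, counts and medians.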

Additional observations from a re-analysis of the deposited data

How the results depend on the processing

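No ribosomal protein gene was called higher or lower in any of the 18 alternative fits or at an adjusted p under 0.1, and the smallest adjusted p of a member was 0.343 (no filter). Counts over all genes, 1 higher and 9 lower, were less stable: 30 and 25 with no filter, 14 and 17 in DESeq2, 0 and 0 in limma-voom (421 and 384 at an unadjusted p under 0.05), and 14 higher without control 2 and SCFA 2. Leaving out each library in turn gave 0 to 8 higher and 0 to 13 lower; without SCFA 2 both were 0, with 164 and 218 at an unadjusted p under 0.05. A fit with the replicate block called 10 genes higher and gave a member median of -0.14. Deviations from the group mean were nearly uncorrelated between libraries of the same number (-0.0021, 0.0101 and -0.0052). Libraries of different numbers gave -0.0083 to 0.0119. These values cannot show whether libraries of the same number share anything more, and the labels do not say what the number stands for. The block changed no call of a member.

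The member median of -0.12 ran from -0.25 to 0.04 with each library left out, the small-subunit median from -0.39 to -0.09 and the large-subunit median from -0.19 to 0.08. Without control 2 and SCFA 2 the small-subunit median moved from -0.29 to -0.037. The small-subunit median stayed below the large-subunit median in each of the 18 fits, by 0.10 to 0.32. Of 612 values of 34 named members under the alternatives, 586 stayed within 1 standard error, and 36 in 14 members changed sign, 10 of them without SCFA 2. Depth limits the low genes most: 3 counts stand for up to 0.346 CPM, and genes with several transcript rows could not be judged. The cause of these changes was not tested.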
